A study of Rattus norvegicus with 18 samples.

Results

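The transforming growth factor β (TGF-β) and bone morphogenetic protein (BMP) regulators described here are 10 genes, Tgfb1, Tgfb2, Tgfb3, Fst, Fstl1, Fstl3, Chrdl2, Smad3, Smad7 and Acvr2b, taken as every probe set on the array that the platform annotation assigns to one of these symbols alone. They are 10 of 14217 named genes and 18 of 31042 probe sets, a probe set being the group of short probes that reports 1 transcript. Of the 18, 12 probe sets of 8 genes reached a signal of 400 on at least 1 array and were tested, among 12238 probe sets of the whole array. Tgfb1 and Fstl3 were below that signal on every array and were not tested, as were the dimmer probe sets of Smad3 and Smad7. A probe set that passed through a high level in 1 group had to differ between groups to some degree, so the 12 are not an unselected sample of the pathway.

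Female Lewis rats, 6 to 8 weeks old per the study's methods, were immunised with acetylcholine receptor (AChR) from the electric organ of Torpedo, each rat receiving 40 µg in complete Freund's adjuvant with 0.5 mg of added mycobacterium, which gives experimental autoimmune myasthenia gravis (EAMG), an antibody-driven weakness of skeletal muscle. Control rats received the adjuvant without AChR, so adjuvant and mycobacterium were common to both groups. At week 6 the diaphragm (DIA), the extensor digitorum longus (EDL), a fast limb muscle, and the rectus extraocular muscles (EOM), which move the eye, were taken, and each of the 6 groups of muscle and treatment was measured on 3 arrays (18 arrays). The RNA on an array came from a pool of rats, 3 by the labels and 4 to 5 or 4 by the study's methods, so the p values measure the spread between pools and not between animals. The methods describe the 3 muscles as dissected from the rats of a group, so pools of different muscles may share animals. The fit treated the 18 arrays as independent.

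TGF-β family ligands bind pairs of type I and type II receptors, which phosphorylate receptor-regulated Smad proteins that enter the nucleus with Smad4 and alter transcription. Secreted binding proteins such as follistatin and the chordin family hold activins, myostatin or BMPs away from their receptors, and inhibitory Smads such as Smad7 block the receptors from within the cell. In skeletal muscle the TGF-β, activin and myostatin arm is known for promoting fibrosis and loss of muscle mass, and the BMP arm for maintaining mass.

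Arrays of one group correlated at r of 0.943 to 0.983 over the tested probe sets. The markers of skeletal muscle (9 of 9 genes tested) were present in every group, and Myh13, the myosin of extraocular muscle, read 24384 to 27688 on the EOM control arrays against 7.45 to 36.5 in control DIA and 281 to 315 in control EDL. The GAPDH 3′/5′ signal ratio, a measure of RNA integrity, was 2.66 on DIA EAMG replicate 3 and 1.06 to 1.33 on the others. DIA EAMG replicate 2 and EOM EAMG replicate 2 carried a low poly-A control signal (1045 and 734, against 11867 to 27673). The summed signal of 8 slow fibre genes was 272716 on EDL EAMG replicate 2. The other EDL EAMG arrays read 87594 and 90908 in this sum, and the control EDL arrays 82930 to 99628. The part of fibre type in the EDL results was not tested. A probe set is said below to have risen, fallen or passed when its limma adjusted p was under 0.05.

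**Figure D1:**
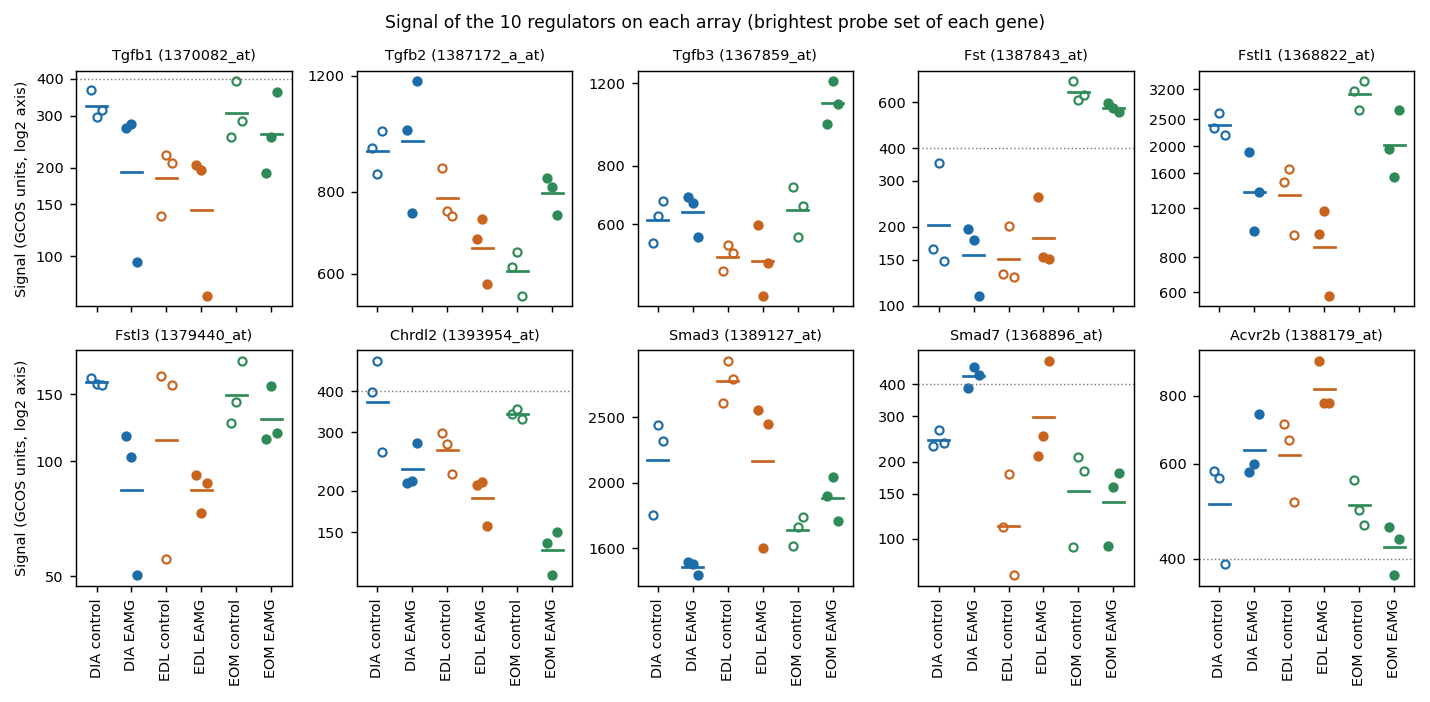
Signal of the brightest probe set of each of the 10 genes on each array, in GCOS units on a log2 axis, by group; open points are control arrays, filled points EAMG arrays, bars geometric means, and the dotted line the signal of 400. Tgfb3 stood highest on the 3 EOM EAMG arrays (979 to 1209.8), Chrdl2 lowest on the same arrays (111 to 150.5), and Fst at 549.7 or more in EOM alone.

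Tgfb3 was the ligand of this group whose signal rose, and it rose in EOM. Tgfb1, Tgfb2 and Tgfb3 encode the TGF-β isoforms, which are secreted in a latent complex. In EOM the Tgfb3 signal was 718, 564 and 654 on the control arrays and 979, 1209.8 and 1083 on the EAMG arrays. All 3 EAMG arrays lay above all 3 control arrays, a rise of 1.69-fold (log2 difference 0.76, SE 0.14, limma adjusted p = 0.0148). In DIA the control arrays read 547, 623 and 673 and the EAMG arrays 686, 666 and 563, with a log2 difference of 0.06 and a 95% interval of -0.25 to 0.36. In EDL the values were 477, 540.4 and 519.8 in control and 598, 422 and 495 in EAMG, and the interval ran from -0.34 to 0.27. The groups overlapped in both of these muscles. The rise in EOM lost its call without EOM control replicate 2 (adjusted p = 0.0894), without EOM control replicate 3 (0.0583) or without EOM EAMG replicate 2 (0.0651), and the log2 difference then stayed between 0.66 and 0.77.

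The bright Tgfb2 probe set, 1387172_a_at, was also higher in EOM of EAMG rats without passing the test. It read 615, 647 and 556 in control EOM and 839, 813 and 737 in EAMG EOM, groups that did not overlap (log2 difference 0.39, SE 0.15, limma adjusted p = 0.250). The second Tgfb2 probe set, 1388011_a_at, gave 299, 402 and 336 against 488, 418 and 454, again without overlap (0.40, SE 0.25, adjusted p = 0.531). In EDL the differences of these probe sets were -0.25 and -0.44, and in DIA 0.05 and 0.24, none of them past the test. Across the 18 arrays the log2 signals of the 2 Tgfb2 probe sets correlated at r = 0.26, so they do not give interchangeable readings of the gene. Tgfb1 lay between 73.6 and 392 on all 18 arrays, and its lowest values were on EDL EAMG replicate 3 (73.6) and DIA EAMG replicate 3 (95.5), the latter being the array of high GAPDH ratio. Where it was fitted with no signal minimum, Tgfb1 had a log2 difference of -0.45 in the mean of the 3 muscles (limma adjusted p = 0.358).

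Markers of surface epithelium and of macrophages did not pass the test in EOM, where red blood cell genes fell (3 of 3 tested). The epithelial and macrophage levels were as follows. The summed signal of 10 surface epithelium markers was 1147 to 2121 on the control EOM arrays and 1902 to 5892 on the EAMG EOM arrays, with 0 of 9 tested probe sets past limma's test and 3 at an unadjusted p under 0.05 (median log2 difference 1.24) and the highest sum on EOM EAMG replicate 3. EOM EAMG replicate 1 (3057) also lay above every control EOM array in this sum. The Tgfb3 call in EOM was kept without EOM EAMG replicate 3, a fit that does not test the part of epithelium. The summed macrophage markers were 2627 to 4535 in control and 3921 to 6294 in EAMG EOM, and 0 of 6 tested probe sets passed, also at an unadjusted p under 0.05. The part of these cell types in the Tgfb3 result was not tested, and in whole muscle a change in the number of cells of a type cannot be told apart from a change in RNA per cell.

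Acvr2b, a type II receptor for activins and myostatin, did not pass the test in any muscle. In EDL the 3 EAMG arrays (928, 776 and 775) lay above the 3 control arrays (710.1, 663 and 509), with a log2 difference of 0.41 (SE 0.17, limma adjusted p = 0.165). In EOM they lay below, at 458, 373 and 436 against 559.7, 492 and 463 (-0.26, SE 0.17, adjusted p = 0.564). In DIA the groups overlapped, at 582, 564 and 392 in control and 578, 600.2 and 740.4 in EAMG.

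Smad7, the inhibitory Smad that also serves as a feedback product of TGF-β signalling, rose in EDL. Its probe set 1368896_at read 111, 178 and 72.0 on the control EDL arrays and 211, 253 and 494 on the EAMG arrays. The groups did not overlap and the EAMG value was 2.64-fold higher (log2 difference 1.40, SE 0.37, limma adjusted p = 0.0390). In DIA the signal was 230.4, 265 and 237 in control and 389, 469 and 437 in EAMG. Here too every EAMG array exceeded every control array, but the difference of 0.82 (SE 0.37, adjusted p = 0.237) did not pass. In EOM the groups overlapped, at 93.2, 209 and 184 against 93.3, 159.7 and 180.0.

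The Smad7 rise in EDL leaned on few arrays. Smad7 reached 400 on 3 arrays, all of them EAMG arrays (2 of DIA and 1 of EDL), so it entered the test only through the treatment in which it was high, and with no signal minimum the EDL call was lost (limma adjusted p = 0.141). Only EDL EAMG replicate 3 reached 400 in EDL, and without it the difference was 1.04 (adjusted p = 0.163). The call was also lost without EDL control replicate 1 (adjusted p = 0.114), EDL control replicate 3 (0.0989), EDL EAMG replicate 2 (0.0791), DIA control replicate 3 (0.0502) or, by the narrowest of margins, EOM control replicate 3. The other Smad7 probe sets, 1368897_at (22.5 to 123) and 1368898_at (27.8 to 134), were too dim to be tested, and their log2 signals correlated with those of 1368896_at at r = 0.17 and -0.19.

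The promoter of Smad7 is shown because it is the regulator of this group that rose in limb muscle and is known as a direct Smad target. The 250 bases before its start, from the RefSeq promoter table for the rat build GRCr8 (chr18:71263258-71263507, plus strand), are given 5′ to 3′ with each match to the GC-rich Smad element GGCGCC in capitals.

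Smad7: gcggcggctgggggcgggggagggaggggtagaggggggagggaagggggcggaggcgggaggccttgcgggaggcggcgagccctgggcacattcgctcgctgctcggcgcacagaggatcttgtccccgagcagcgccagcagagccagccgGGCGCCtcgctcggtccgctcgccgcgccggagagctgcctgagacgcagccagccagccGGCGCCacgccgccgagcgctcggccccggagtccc

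The matches lie 96 to 91 and 36 to 31 bases before the start. Among 33469 promoter windows of this length 8.69% held GGCGCC on either strand, and of the 8 regulators with an entry in the table Smad7 alone held it. The Smad box CAGAC was in 42.9% of all windows and, of the 8, in Fstl3 alone. The Smad-binding palindrome GTCTAGAC (0.173% of windows) and the glucocorticoid response element (0.373%) were in none of the 8. A letter match does not show that a factor binds there, and the arrays did not measure binding.

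Smad3, the receptor-regulated Smad of the TGF-β, activin and myostatin arm, was lower in DIA and EDL of EAMG rats without passing the test. In DIA its bright probe set 1389127_at read 1791, 2432 and 2304 in control and 1525, 1518 and 1459 in EAMG. In EDL it read 2625, 3026 and 2847 in control and 2558, 1601 and 2445 in EAMG. In both muscles all EAMG arrays lay below all control arrays, with log2 differences of -0.52 (SE 0.16, limma adjusted p = 0.0873) and -0.39 (SE 0.16, adjusted p = 0.150). The lowest EDL value, 1601, was on EDL EAMG replicate 2, the array of high slow fibre sum, and the part of fibre type was not tested. In EOM the direction was the other one, 1609, 1719.9 and 1780.3 against 1909.8, 2039 and 1755 (0.16, SE 0.16, adjusted p = 0.729), and the groups overlapped. The second Smad3 probe set stayed between 3.30 and 104 and was not tested.

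**Figure D2:**
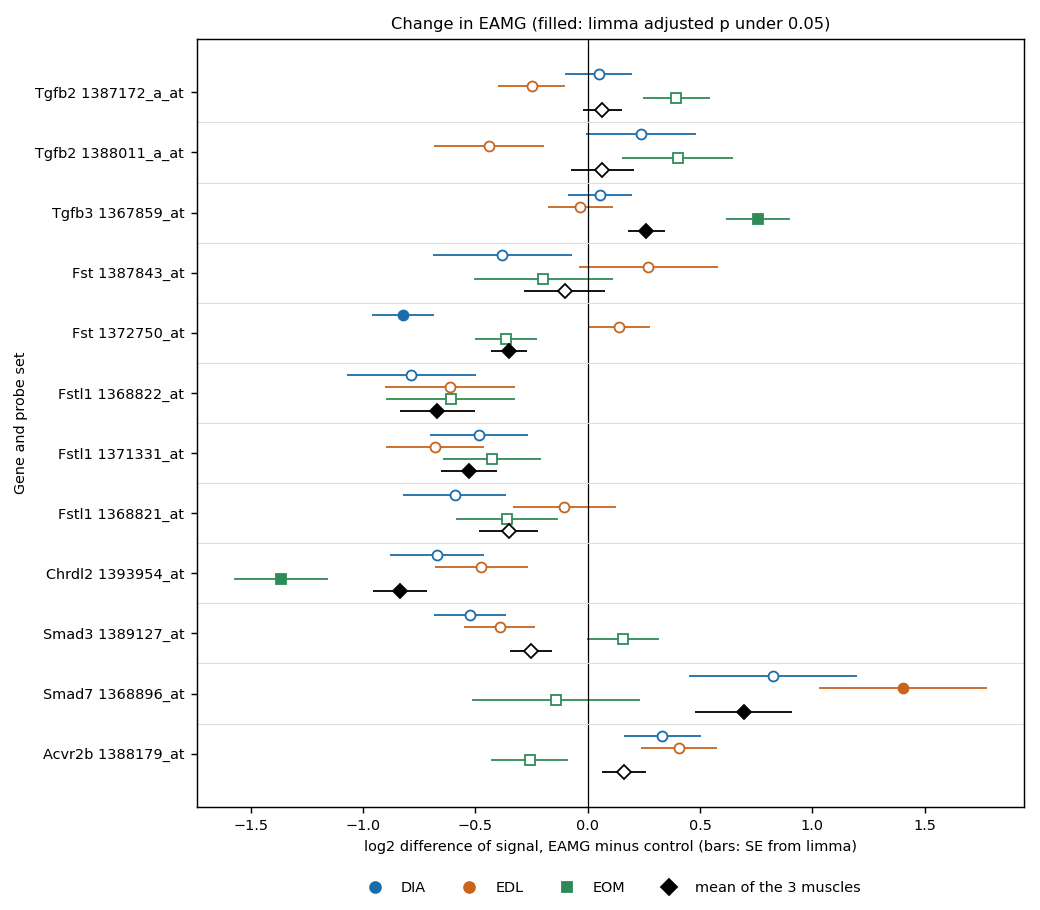
Change in EAMG of the 12 tested probe sets, as log2 difference of signal (EAMG minus control, horizontal axis) with SE bars, in DIA, EDL and EOM and as the mean of the 3 muscles; filled symbols passed limma's test. Single-muscle calls were Fst 1372750_at in DIA (-0.82), Smad7 in EDL (1.40), and Tgfb3 (0.76) and Chrdl2 (-1.36) in EOM, and the 3 Fstl1 probe sets lay left of 0 in all 3 muscles.

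Of the secreted inhibitors Fst, Fstl1, Fstl3 and Chrdl2, Chrdl2 fell in EOM, Fst fell in DIA and Fstl1 fell in the mean of the 3 muscles. Chrdl2, a chordin-like protein that binds BMPs, read 341, 353 and 329.9 on the control EOM arrays and 139, 111 and 150.5 on the EAMG EOM arrays. The groups were well apart, a fall of 2.58-fold (log2 difference -1.36, SE 0.21, limma adjusted p = 0.00366). In EDL all EAMG arrays (208, 213 and 156) were again below all control arrays (298, 278 and 224), by -0.47 (SE 0.21, adjusted p = 0.183). In DIA the values were 396, 493 and 262 in control and 211, 214 and 279 in EAMG, a difference of -0.67 (SE 0.21, adjusted p = 0.0929), and the groups overlapped. Averaged over the muscles Chrdl2 fell 1.79-fold (log2 difference -0.84, SE 0.12, adjusted p = 3.99e-04).

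The Chrdl2 levels were low. Only DIA control replicate 2 reached a signal of 400, so Chrdl2 was tested at all through 1 array, and its EOM signals were all below 400. Where it was tested, the EOM call was kept in 17 of 17 fits that left out 1 array (log2 difference -1.46 to -1.24). The part of other cell types in the Chrdl2 result was not tested.

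Fst encodes follistatin, the secreted binder of activins and myostatin. Its probe set 1372750_at fell in DIA, from 220.3, 215 and 231 on the control arrays to 140.4, 102 and 138 on the EAMG arrays. The groups did not overlap, and the fall was 1.77-fold (log2 difference -0.82, SE 0.14, limma adjusted p = 0.00892). In EOM the same probe set read 454, 502 and 439 in control and 359, 315 and 415 in EAMG, without overlap but not past the test (-0.36, SE 0.14, adjusted p = 0.253). In EDL it read 164, 171 and 145 in control and 198, 171 and 160.3 in EAMG, with overlap (0.14, SE 0.14, adjusted p = 0.583).

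The other follistatin probe set, 1387843_at, passed in no EAMG comparison. In DIA it read 164, 349.7 and 147 in control and 197, 179 and 109 in EAMG (-0.38, SE 0.31, limma adjusted p = 0.518). The fall of 1372750_at in DIA was kept without any 1 of the 18 arrays, including DIA EAMG replicate 3 of high GAPDH ratio (-0.89, adjusted p = 0.0190), but lost its call where no signal minimum was set (adjusted p = 0.0690). Its DIA signals were all below 400. Fstl3, a relative of follistatin with the same kind of ligands, lay between 50.3 and 183 by its brighter probe set. In DIA that probe set was 165, 159.8 and 159 in control and 116, 102 and 50.3 in EAMG, and with no signal minimum its log2 difference in the mean of the 3 muscles was -0.53 (SE 0.22, limma adjusted p = 0.204).

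Fstl1 encodes a secreted glycoprotein of the follistatin-like group that fibroblasts and muscle release and that has been described as a BMP antagonist. By probe set 1368822_at the DIA signal was 2316, 2629.5 and 2197 in control and 1912, 992 and 1375 in EAMG. In EDL it was 1493, 1652 and 964 in control and 972, 1172 and 583 in EAMG. In EOM it was 3154, 2706 and 3416 in control and 1958, 1553 and 2695 in EAMG. EAMG arrays lay below control arrays without overlap in DIA and EOM and with overlap in EDL.

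By 1371331_at the control and EAMG signals were 1647, 2366 and 1712 against 1419, 1392 and 1236 in DIA and 2727, 2972 and 3183 against 1973, 2248 and 2404 in EOM, both without overlap. In EDL they were 1187, 1421 and 772 against 859, 720.1 and 513, with overlap. The third and dimmest, 1368821_at, overlapped in every muscle (differences of -0.59, -0.10 and -0.36 in DIA, EDL and EOM). The 9 log2 differences of the 3 probe sets ran from -0.79 to -0.10, and none passed in a single muscle (limma adjusted p from 0.0736 to 0.825).

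Averaged over the 3 muscles Fstl1 fell 1.59-fold by 1368822_at (log2 difference -0.67, SE 0.17, limma adjusted p = 0.0115) and 1.44-fold by 1371331_at (-0.53, SE 0.13, adjusted p = 0.00915), while 1368821_at missed the threshold (-0.35, SE 0.13, adjusted p = 0.0709). The 3 probe sets report 1 gene and are not independent, with r of 0.87 to 0.91 between their log2 signals. The Fstl1 window in the promoter table (GRCr8, chr11:76454054-76454303, minus strand), shown beside that of Smad7 as a regulator that fell, held none of the 4 motifs searched.

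Fstl1: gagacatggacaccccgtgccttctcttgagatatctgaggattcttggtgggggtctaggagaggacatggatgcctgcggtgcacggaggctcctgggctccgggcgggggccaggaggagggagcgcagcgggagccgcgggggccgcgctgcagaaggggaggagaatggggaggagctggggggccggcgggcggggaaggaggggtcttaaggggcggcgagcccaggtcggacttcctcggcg

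Both windows are rich in G and C, at 78.0% for Smad7 and 70.0% for Fstl1. They cover the 250 bases before the annotated start and nothing of the transcript.

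Of the fibroblast markers, the collagen genes Col1a1 and Col1a2 fell in DIA and EDL, and Col3a1 and Lum fell in EDL. Pdgfra and Dcn did not pass. Dcn had group means (control, then EAMG) of 12065 and 13615 in DIA and 8504 and 8619 in EDL. Fstl1 was lower without passing the test in all 3 muscles. The summed signal of 8 fibroblast genes, among them Pdgfra, Dcn, Lum and the fibrillar collagens, was 40547 to 46846 in control and 24717 to 33587 in EAMG DIA, and 21435 to 35069 in control and 15297 to 21812 in EAMG EDL. Of 8 tested probe sets of this list 4 fell in DIA and 6 in EDL, where 2.68% and 6.59% of all probe sets passed. In EOM the sums were 58089 to 62716 and 52214 to 60025, which overlap, and 0 of 8 passed, none of them at an unadjusted p under 0.05, while both bright Fstl1 probe sets were lower there without overlap. Of the 8 genes 2 were below 400 on every array. The part of fibroblast content in the Fstl1 result was not tested. Red blood cell genes also fell (3 of 3 tested in DIA, 1 of 3 in EDL, 3 of 3 in EOM), and their part was not tested.

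**Figure D3:**
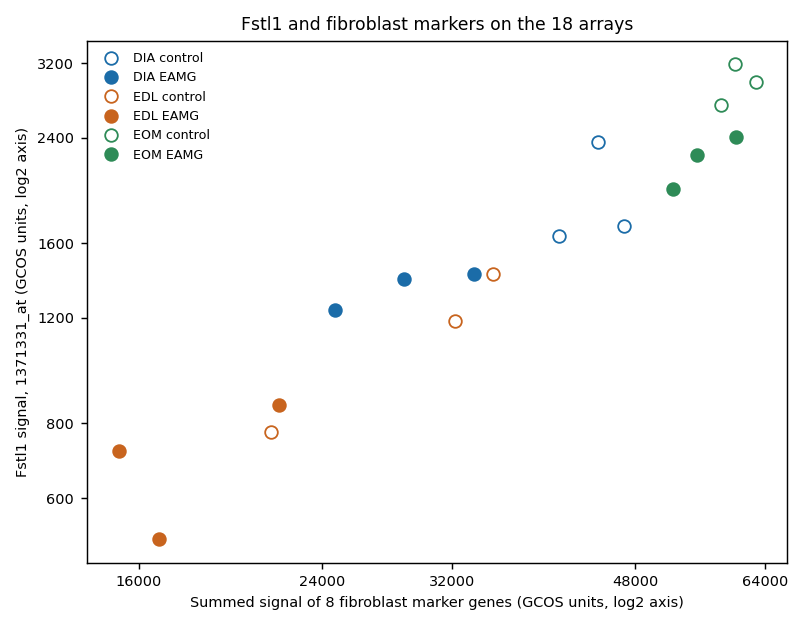
Fstl1 signal by probe set 1371331_at (vertical axis) against the summed signal of 8 fibroblast marker genes (horizontal axis) on the 18 arrays, both in GCOS units on log2 axes; open points are control and filled points EAMG arrays, coloured by muscle. The DIA EAMG arrays sit at lower fibroblast sums than all DIA controls (24717 to 33587 against 40547 to 46846), and the 3 EOM EAMG arrays lie below the EOM controls in Fstl1 at overlapping fibroblast sums.

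Over the 12 tested probe sets, few passed within a single muscle. In DIA 1 of 12 passed, against 2.68% of all probe sets tested. In EDL 1 of 12 passed, against 6.59%, and in EOM 2 of 12, against 1.5%. For DIA, EDL and EOM the median log2 difference of the 12 came to -0.43, -0.18 and -0.23, beside 0.01, -0.00 and 0.00 for all tested probe sets. Groups did not overlap for 5 of 12 in DIA (24.4% of all), 5 of 12 in EDL (25% of all) and 9 of 12 in EOM (24.5% of all). A single call among 12, as in DIA and EDL, is not read as a property of the group.

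In the mean of the 3 muscles 6 of 12 passed, against 20.4% of all probe sets. Of all probe sets 10.5% were higher and 9.93% lower, and of the 12 probe sets 2 and 4. Tgfb3 (0.26, SE 0.08, limma adjusted p = 0.0384) and Smad7 (0.70, SE 0.22, adjusted p = 0.0344) were higher, and Fst 1372750_at (-0.35, SE 0.08, adjusted p = 0.00774), Chrdl2 and both bright Fstl1 probe sets were lower. This mean uses the same arrays as the single-muscle comparisons and adds no independent evidence to them. Its SE takes the muscles as independent, although their pools may share rats. The calls of Tgfb3 and Smad7 here were not firm, since each was lost in 11 and 10 of the 18 fits without 1 array (adjusted p up to 0.0804 without EOM control replicate 2 for Tgfb3, and up to 0.0672 without EOM control replicate 1 for Smad7).

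Whether the EAMG change itself differed between muscles was tested as a difference of differences, and no probe set of the group passed limma's test in any of the 3 such comparisons. Background shares were 0.106% for EOM against EDL and 0.0163% for the other two. At an unadjusted p under 0.05 the comparison of EOM with EDL held 8 of the 12 (10.1% of all probe sets), that of EOM with DIA 5 (6.5% of all) and that of EDL with DIA 1 (5.31% of all). Tgfb3 changed by log2 0.79 more in EOM than in EDL (SE 0.20, unadjusted p = 0.00143, adjusted p = 0.170) and by 0.70 more than in DIA (SE 0.20, unadjusted p = 0.00349, adjusted p = 0.488). For Smad7 the EOM change was 1.54 below the EDL change (log2 -1.54, SE 0.53, adjusted p = 0.331). For Chrdl2 it was -0.89 relative to EDL (SE 0.29, adjusted p = 0.305) and -0.69 relative to DIA (SE 0.29, adjusted p = 0.715). Fst 1372750_at differed by 0.96 between EDL and DIA (SE 0.20, unadjusted p = 1.95e-04, adjusted p = 0.333). None of these calls in a single muscle is therefore shown to be specific to it.

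The control muscles differed from one another mainly in the follistatin group. Fst was highest in EOM by both probe sets. By 1387843_at control EOM read 719.8, 612 and 638, control DIA 164, 349.7 and 147, and control EDL 132, 202 and 128. Every EOM array was above every other control array, by 4.34-fold over EDL (log2 difference 2.12, SE 0.31, limma adjusted p = 7.36e-05) and 3.21-fold over DIA (1.68, SE 0.31, adjusted p = 0.00106). By 1372750_at the differences were 1.54 (SE 0.14, adjusted p = 8.97e-07) and 1.06 (SE 0.14, adjusted p = 5.45e-05). DIA exceeded EDL by this second probe set (0.48, SE 0.14, adjusted p = 0.0218), and by the first the pair overlapped (0.43, SE 0.31, adjusted p = 0.330). Both probe sets reached 400 on EOM arrays alone (6 and 4 of the 18 arrays) and so entered the test through the muscle in which they were high. With no signal minimum the differences of EOM from EDL and DIA kept their calls (limma adjusted p from 2.33e-05 to 0.00659). That of DIA from EDL did not (0.0928), and it was also lost in 3 of 18 fits without 1 array, those leaving out DIA control replicates 1 or 3 or EDL control replicate 3. Log2 signals of the pair correlated at r = 0.89 across the 18 arrays.

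Fstl1 followed the order EOM, DIA, EDL. Control EOM exceeded control EDL by 1.82 (1368821_at), 1.44 (1371331_at) and 1.21 (1368822_at) on the log2 scale, and control DIA exceeded control EDL by 1.24, 0.79 and 0.83, each past limma's test (adjusted p from 1.86e-05 to 0.0464). The call of DIA over EDL was lost by 1368822_at in 11 of 18 fits without 1 array (adjusted p up to 0.171, without EDL control replicate 3) and by 1371331_at in 2, those without DIA control replicate 2 (0.0782) or EDL control replicate 3, and by 1368821_at in none. EOM and DIA were less clearly apart, since only 1371331_at passed (0.65, SE 0.22, adjusted p = 0.0446), and that call was lost in 13 of 18 fits without 1 array (up to adjusted p = 0.151, without DIA control replicate 1). The fibroblast sums followed the same order in the controls, at 58089 to 62716 in EOM, 40547 to 46846 in DIA and 21435 to 35069 in EDL, and their part in the Fstl1 order was not tested.

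Of the Smads, Smad3 was lower in control EOM than in control EDL (1703 ± 86.7 against 2833 ± 201, SD, n = 3; log2 difference -0.73, SE 0.16, limma adjusted p = 0.00178). Control DIA lay between them at 2176 ± 339 (SD, n = 3), and its differences from EDL (-0.39, adjusted p = 0.0855) and from EOM (EOM minus DIA -0.34, adjusted p = 0.148) did not pass. Smad7 was 2.16-fold higher in control DIA than in control EDL (1.11, SE 0.37, adjusted p = 0.0415), a call lost in 5 of 18 fits without 1 array (adjusted p up to 0.159, without EDL control replicate 3). Smad7 in EOM did not differ past the test from DIA (-0.67, adjusted p = 0.238) or EDL (0.44, adjusted p = 0.368).

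Tgfb2 by 1387172_a_at was lower in control EOM (606 ± 46.5, SD, n = 3) than in control DIA (924 ± 70.3, SD, n = 3), by -0.61 (SE 0.15, limma adjusted p = 0.00863). By the same probe set the difference between EOM and EDL (-0.37, adjusted p = 0.0598) and that between DIA and EDL (0.24, adjusted p = 0.269) did not pass. The other Tgfb2 probe set, 1388011_a_at, did not show the lower level in EOM than in DIA (0.03, SE 0.25, adjusted p = 0.948), and its difference between DIA and EDL had the opposite sign (-0.46, SE 0.25, adjusted p = 0.191). Tgfb3, Chrdl2 and Acvr2b passed in no comparison of control muscles. In all, 6 of 12 passed between EOM and EDL, against 41.4% of all probe sets, 4 between EOM and DIA, against 21.3%, and 5 between DIA and EDL, against 24.8%, so the number passing between EOM and EDL was near the background.

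**Figure D4:**
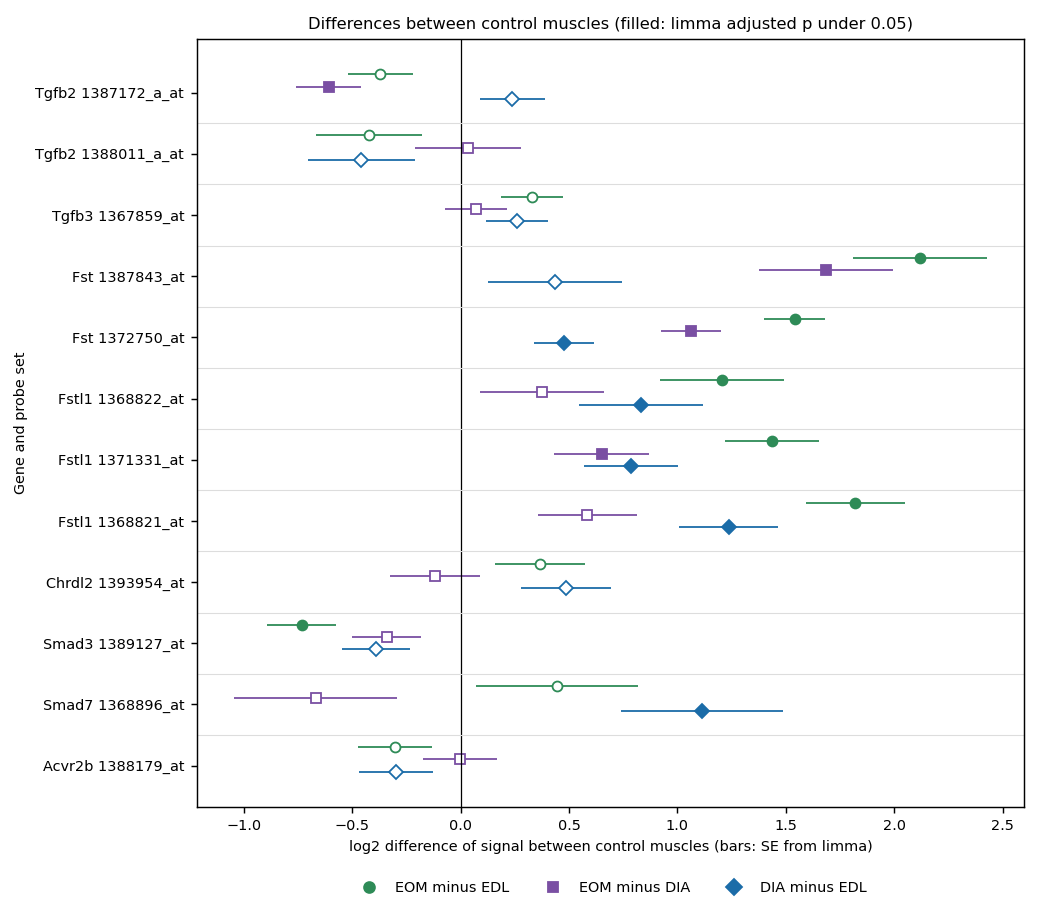
Differences between the muscles of control rats for the 12 tested probe sets, as log2 difference of signal (horizontal axis) with SE bars; filled symbols passed limma's test. The Fst and Fstl1 probe sets lie right of 0 for EOM minus EDL (1.21 to 2.12), and Smad3 lies left of 0 (-0.73).

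The wider pathway was read from lists by role, which include the 10 genes, so the counts for their roles are not separate evidence. Among the extracellular inhibitors 7 of 16 listed genes were tested. By probe sets 6 of 11 were lower and 0 higher in the mean of the 3 muscles, where 9.93% of all probe sets were lower and 10.5% higher. Counting a gene where any of its probe sets passed, 5 genes fell and 0 rose. Of the 5, Chrdl2, Fst and Fstl1 are genes already counted above, and the others were Nbl1 and Sostdc1. Nbl1, a secreted BMP binder also known as DAN, fell in EDL (-0.64, SE 0.16, limma adjusted p = 0.0293) and in the mean (-0.55, SE 0.09, adjusted p = 0.00107). Sostdc1, a BMP and Wnt antagonist, fell in the mean only (-0.31, SE 0.11, adjusted p = 0.0468), with group means (control, then EAMG) of 121 and 78.4 for DIA, 145 and 107 for EDL and 358 and 392 for EOM. The list's median was -0.35 in the mean of the muscles against 0.01 for all probe sets. Of the 6 ligands tested, Tgfb3 alone passed.

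Receptors and Smads held a few further calls. In the mean 1 of 10 receptor probe sets was higher and 2 lower, and 2 of 8 Smad probe sets were higher and 0 lower. Of all probe sets 10.5% were higher and 9.93% lower in the mean, and 6.59% passed in EDL. Of 9 receptors tested, Tgfbr1, the type I TGF-β receptor, rose in EDL (0.54, SE 0.15, limma adjusted p = 0.0499) and in the mean (0.33, SE 0.09, adjusted p = 0.0171). Amhr2, the receptor of anti-Müllerian hormone, fell in EDL (-0.75, SE 0.18, adjusted p = 0.0248) and in the mean (-0.46, SE 0.10, adjusted p = 0.00678). Acvr1, a BMP type I receptor, fell in the mean by 1379217_at (-0.49, SE 0.11, adjusted p = 0.00807). The other Acvr1 probe set, 1385069_at, did not pass. Its group means (control, then EAMG) were 516 and 426 for DIA, 458 and 488 for EDL and 482 and 396 for EOM. Of 6 Smads tested, Smad4, the common partner, rose with Smad7 in EDL (0.54, SE 0.15, adjusted p = 0.0494) and in the mean (0.39, SE 0.09, adjusted p = 0.00760).

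Inside the cell, Tgif1 and Skil, co-repressors that bind Smads, rose in the mean of the muscles, by 1.15 (SE 0.22, limma adjusted p = 0.00298) and 0.26 (SE 0.06, adjusted p = 0.00779). Tob1, an anti-proliferative protein that binds BMP Smads, fell in EOM (-0.53, SE 0.12, adjusted p = 0.0446) and in the mean (-0.25, SE 0.07, adjusted p = 0.0226). The other intracellular regulators, of 12 tested, did not pass. By probe sets 2 of 15 were higher and 1 lower in the mean, beside 10.5% and 9.93% of all. In EOM 1.5% of all passed. In the latency and activation list (12 tested), Fbn1, the fibrillin that holds latent TGF-β in the matrix, fell in EDL by 1387351_at (-1.14, SE 0.30, adjusted p = 0.0355) and in the mean (-0.74, SE 0.17, adjusted p = 0.00802). Itgb6, a subunit of an integrin that activates TGF-β, rose in EDL (0.45, SE 0.12, adjusted p = 0.0429). By probe sets of this list 1 of 13 was higher and 1 lower in EDL, where 6.59% of all passed.

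Known targets moved both ways. Of 20 target genes tested, 2 rose and 2 fell in DIA, 3 rose and 4 fell in EDL, and 0 passed limma's test in EOM. In EOM 3 of 26 probe sets had an unadjusted p under 0.05. By probe sets 2 of 26 rose and 4 fell in DIA, and 3 rose and 6 fell in EDL. Of all probe sets 2.68% passed in DIA, 6.59% in EDL and 1.5% in EOM. The targets that fell in DIA were Col1a1 (-1.44 by 1388116_at, SE 0.31, adjusted p = 0.0258) and Col1a2 (-1.23 by 1370155_at, SE 0.26, adjusted p = 0.0252), collagen genes that are also on the fibroblast list. In EDL these fell too, with Col3a1 (-1.37, SE 0.30, adjusted p = 0.0180) and Id2, a target of BMP Smads (-1.37, SE 0.35, adjusted p = 0.0326). The other Id genes of the list did not pass in EAMG and moved both ways in EDL. Their EDL group means (control, then EAMG) were 1052 and 1475 for Id1, 537 and 738 for Id3, and 452 and 275 for Id4. The genes that rose, named for their small number after their values were seen, were Klf10, a TGF-β-inducible transcription factor (1.15 in DIA, adjusted p = 0.0297, and 1.00 in EDL, adjusted p = 0.0355), Tsc22d1 by 1398759_at (0.49 and 0.58) and, in EDL, Atoh8 (1.11, SE 0.22, adjusted p = 0.0100). The other Tsc22d1 probe sets did not pass in EAMG. In DIA 1378081_at read 351 in control and 390 in EAMG, and 1392438_at 271 and 183 (group means). The list's median log2 difference in DIA, EDL and EOM was 0.14, 0.07 and 0.00.

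**Figure D5:**
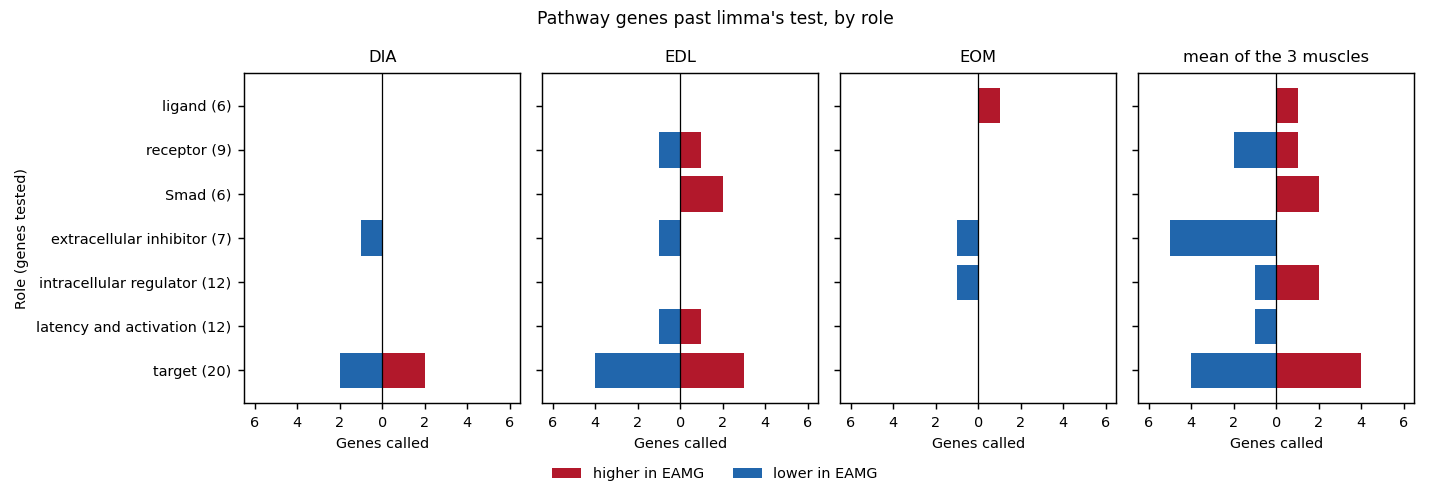
Number of genes in each role of the pathway that passed limma's test as higher (right, red) or lower (left, blue) in EAMG, in DIA, EDL, EOM and the mean of the 3 muscles, with the number of genes tested in brackets. Extracellular inhibitors show 5 lower and 0 higher in the mean, and targets 4 lower and 4 higher. Of all probe sets tested 2.68% passed in DIA, 6.59% in EDL, 1.5% in EOM and 20.4% in the mean.

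The genes with profiles most like those of the regulators were read from the 18 arrays after the mean of each muscle was subtracted, as a description over arrays that share muscle, treatment and scaling. Tgfb3 was most like Nes, which encodes the intermediate filament nestin (Pearson's r = 0.86), then Klhdc3 (0.83) and Hopx (0.81). Fst 1372750_at was most like Serpinf1 (0.84), Dbn1 (0.83) and Tnik (0.82). Fstl1 by 1371331_at was most like Fbn1 (0.96), Cd248 (0.94) and Col15a1 (0.94), and by 1368822_at like Fndc5 (0.93), Smoc2 (0.93) and Gng11 (0.93).

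Chrdl2 was most like Tcea3 (r = 0.91), the chemokine Cxcl12 (0.90) and the kinase Dmpk (0.89). Smad7 was most like Etnk1 (0.87), Tent4a (0.86) and Thumpd3 (0.85). Without the subtraction, on a scale that keeps the differences between muscles, Smad7 was most like Tent4a (0.90), Pmepa1 (0.89) and Lgals8 (0.87). Pmepa1, a TGF-β target that acts on Smads, was not among the 3 genes most like Smad7 after the subtraction. On that scale Acvr2b was most like Pfdn1 (0.88), Rpl19 (0.88) and Zfp653 (0.87). Smad3 was most like Gpd1, the cytosolic glycerol phosphate dehydrogenase (0.90), Ttl (0.89) and Ntan1 (0.88). Tgfb2 by 1387172_a_at was most like Gpr107 (0.84), Bcl7a (0.82) and Aagab (0.82), and Fst by 1387843_at like Fut8 (0.94), Antxr2 (0.94) and Epb41l1 (0.94).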

How the data were processed

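Total RNA of pooled muscles was hybridised to 18 rat expression arrays, and groups and replicate numbers came from the sample titles. The deposited values are linear signal intensities, which the authors made with GCOS 2.0 from perfect match and mismatch probes and scaled to one target per array (a mean of about 500 over probe sets without the extreme 2% at either end). No column lacked a sample (0). Symbols came from the platform annotation: of 31042 probe sets 20826 carried 1 symbol, 436 several and 9780 none.

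Probe sets with a signal of 400 or more on at least 1 array were taken to log2 and fitted with limma 3.58.1 under R 4.3.3 (lmFit and eBayes, 1 mean per group, all 18 arrays, 12 residual degrees of freedom). P values were adjusted by Benjamini-Hochberg over the 12238 probe sets tested, and SE and 95% intervals are limma's. A two-sided exact test of 3 against 3 arrays cannot go below 0.1, so single genes were not permuted. The number of arrays limits the precision. The fit was tested on simulated data. Figures used python 3.11.15 and matplotlib 3.10.9.

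All 10 genes were named by every tested probe set. In each pathway role up to 3 further probe sets of largest change among those that passed were named, with others where counts were small, and the 3 genes of highest r for each tested regulator, with muscle means subtracted where it passed in EAMG and without that otherwise. Smad7 was given on both scales. The genes and lists were chosen with earlier results of these data known. The study's methods say that the experiment was repeated to give the 3 replicates but do not tie replicate numbers across groups. Alternatives were no signal minimum, 400 on at least 3 arrays, quantile normalization, 100 added to each signal, only the arrays compared, a replicate block, and leaving out arrays.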

Additional observations from a re-analysis of the deposited data

How the results depend on the processing

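All 25 results called for the 12 probe sets kept their direction under every alternative that tested them. Among results called in neither fit the sign changed in 47 of 2319 comparisons. With no signal minimum the calls were 0 in DIA (1 in the report), 0 in EDL (1), 1 in EOM (2), 3 in the mean of the 3 muscles (6) and 1 between control DIA and control EDL (5). That setting adjusts p over 31042 probe sets instead of 12238. With the arrays of the comparison alone the counts were 0 in DIA, 0 in EDL, 1 in EOM and 2 between control DIA and EDL, and Fst 1372750_at in DIA and Chrdl2 in EOM were then below 400 and not tested. Quantile normalization gave 2 calls in DIA, the second being Smad3 (-0.58, adjusted p = 0.0499). Requiring 400 on at least 3 arrays left 1 call in EOM because Chrdl2 was no longer tested, and EOM had 1 call when the 2 low poly-A arrays were left out, where Tgfb3 had an adjusted p of 0.0752.

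Leaving out 1 array at a time gave 1 to 2 calls in DIA, 0 to 2 in EDL, 1 to 2 in EOM, 4 to 6 in the mean, 6 to 7 between control EOM and EDL, 3 to 4 between control EOM and DIA, 1 to 6 between control DIA and EDL, and 0 in every difference of changes. Chrdl2 was not tested without DIA control replicate 2. The low of 1 between control DIA and EDL came without EDL control replicate 3. Tgfb3 in the mean of the muscles passed only in fits that left out DIA control replicate 3, DIA EAMG replicate 3, EDL control replicates 2 or 3, EDL EAMG replicate 2, EOM control replicate 1 or EOM EAMG replicate 1. Chrdl2 in DIA passed without DIA control replicate 3 (-0.92, adjusted p = 0.0358), and Fstl1 1371331_at in EDL without EDL control replicate 3 (-0.93, adjusted p = 0.0183) or EDL EAMG replicate 1 (-0.85, adjusted p = 0.0324).

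Replicate numbers were not taken to pair samples. EAMG and control arrays of one muscle and number deviated together with r of -0.03 to 0.34, over 0.1 in 7 of 9 pairs, and 7 of 9 matched their own number best, out of 3 numbers. Over all pairs of groups r ran from -0.20 to 0.47, and 23 of 45 matched their own number best. The main fit takes no account of a run shared by arrays of 1 number. With the replicate block the counts were 1 in DIA, 1 in EDL, 2 in EOM, 6 in the mean, 6 and 4 for control EOM against EDL and DIA, and 4 for control DIA against EDL, where Fstl1 1368822_at lost its call (adjusted p = 0.0526).

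Signals near or below 400 limit what can be read for Tgfb1, Fstl3, Chrdl2, Smad7 and Fst outside EOM, since present and absent calls were not analysed here.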
